A study of Mus musculus with 6 samples.

Results

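The comparison described here sets uterine epithelium of Sox17 heterozygous mice on day 4 of pregnancy against that of wild-type (WT) mice on the same day. It rests on 4 of the 6 arrays of the series, chosen by sample title: heterozygous samples 253 and 281, and WT samples 277 and 284. The heterozygous females had 1 of their Sox17 alleles replaced by a GFP allele (Sox17GFP/+), and no Cre or other driver is named. All samples were epithelium freed from uterine pieces with pancreatin and dispase, with 1 Affymetrix 3′ expression array for each sample. Day 1 was the day the plug was found, and WT samples 302 and 303 of that day enter through the shared estimate of spread and as a reference level. Strain, age and the number of animals behind a sample are not stated in the labels, so the p-values cover the spread between these samples, which may be technical.

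SOX17 is a transcription factor of the SRY-related HMG-box family that is made in endoderm, in endothelium and in the epithelium of the uterus. In the mouse uterus, estrogen drives epithelial division and secretion around mating. Progesterone then stops division of the epithelium and, through signals such as Indian hedgehog, prepares the stroma, so that by day 4 the lining can accept an embryo. The question the design poses is which of these epithelial programmes differ when 1 of the 2 Sox17 alleles is replaced.

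The 18193 genes that had a probe set with a single symbol were measured as linear signals, and 9328 of them had a mean signal over 200 in at least 1 of the 2 day 4 groups. WT array 277 stood apart in its dim range, with a median signal of 138 over 45101 probe sets against 66.2 on WT array 284 and 72.2 and 67.3 on the heterozygous arrays. Over all genes, the median log2 change of heterozygotes was -0.39 against array 277 and -0.02 against array 284. Among genes over a signal of 200 it was -0.01 against either array. In that brighter set the 2 WT arrays were at least 2-fold apart for 6.43% of genes and the 2 heterozygous arrays for 1.2%. Changes of dim genes therefore depend on which WT array is used, and each change below was set against both.

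General epithelial markers were strong on all 4 arrays. Epcam, an epithelial adhesion molecule, read 16220 and 16834 in WT against 15568 and 15142 in heterozygotes, and the summed signal of 18 such genes was 184900 and 201800 in WT against 197900 and 198100 in heterozygotes. Markers of stroma, smooth muscle and macrophages also gave signals, though without detection calls the low ones may be background. The sums of these lists were lower in heterozygotes, as described further on.

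Sox17 itself was the brightest member of the SOX family. Its signal was 34794 and 35060 in WT against 30189 and 28810 in heterozygotes, so the groups did not overlap, and the log2 change was -0.24 ± 0.17 (SE, n = 2 arrays per group, adjusted p = 0.487). The other Sox17 probe set read 22781 and 18473 in WT against 13304 and 13061 in heterozygotes, a change of -0.64 ± 0.16 (adjusted p = 0.0761). Neither passed, and whether these probe sets also read a transcript of the GFP allele is unknown. Centring each array on its median turned the change of the first probe set to 0.03.

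Against this background, 351 genes were higher and 289 lower in heterozygotes at an adjusted p under 0.05, which is 3.52% of the genes tested (1.93% higher and 1.59% lower). The test was limma, whose estimate of spread was allowed to follow intensity, with Benjamini-Hochberg adjustment over all genes. Limma's default prior, which takes no account of intensity, called 0 genes, with 2406 at an unadjusted p under 0.05 and a smallest adjusted p of 0.125. The same default prior called 451 genes when fitted only on genes with a mean signal of at least 200, and 388 of these were among the 640. The number of calls changed strongly when single arrays were left out, as given at the end. Such a fit leaves a single array in its group, so fewer calls need not mean smaller changes. The cause of these shifts was not tested. After centring on the median, 149 genes were higher and 59 lower (71.6% higher, against 54.8%).

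**Figure D1:**
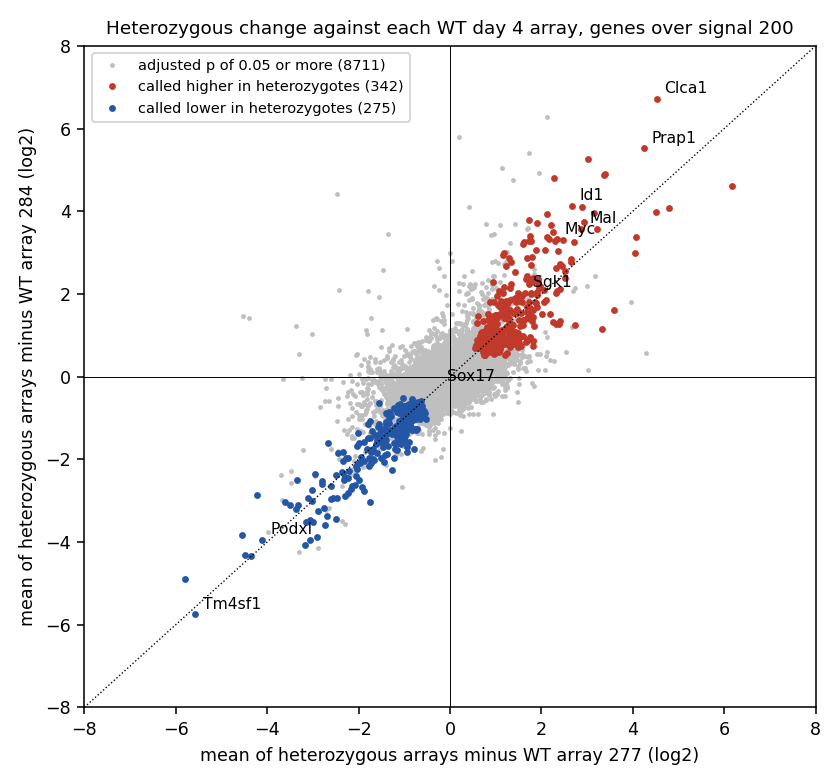
Mean log2 change of the 2 heterozygous arrays against WT array 277 (x axis) and against WT array 284 (y axis), 1 point for each of the 9328 genes over a signal of 200, coloured by call. The 342 genes called higher lie above 0 and the 275 called lower below 0 on both axes; on the dotted diagonal both WT arrays give the same change.

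A stricter reading asked that both heterozygous arrays differ at least 2-fold, in 1 direction, from each WT array singly. Among genes over a signal of 200, of which 6.61% were called (3.67% higher and 2.95% lower), 138 called genes were higher and 121 lower by this measure. Over all 18193 genes, 6.46% met the 2-fold condition without regard to a test (1.71% higher and 4.75% lower). Groups that did not overlap made up 48.5% of all genes (18% higher and 30.6% lower), so non-overlap alone says little here.

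The 15 higher genes named here are those with the largest increase between the nearest pair of arrays. Prap1 and Clca1 led that order, and Mal and Sprr2f, also bright in heterozygotes, stood lower in it. Prap1, a secreted proline-rich acidic protein, read 969.8 and 399 in WT against 21826 and 15448 in heterozygotes (4.88 ± 0.33, adjusted p = 0.000108), and its other probe set moved likewise (5.14 ± 0.27). Clca1, a secreted regulator of chloride channels, read 383 and 82.9 in WT against 13989 and 5589 in heterozygotes (5.62 ± 0.58, adjusted p = 0.000819). Sprr2f, a small proline-rich protein of the cornified envelope, read 3934 and 2263 in WT against 31941 and 28634 in heterozygotes (3.34 ± 0.24). Mal, a proteolipid of apical transport, read 603 and 371 in WT against 4481 and 4399 in heterozygotes (3.23 ± 0.21). Between the nearest pair of arrays the difference was 15.9-fold for Prap1, 14.6-fold for Clca1 and 7.28-fold for Sprr2f and for Mal. On the WT day 1 arrays Prap1 (45700 and 47370), Clca1 (35538 and 35672) and Sprr2f (43299 and 42696) read above the heterozygotes, while Mal, at 2281 and 2636, lay between the day 4 groups.

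Other large increases were in genes that read under 200 on both WT day 4 arrays. Anxa9, an annexin, read 22.4 and 32.5 in WT against 692 and 406 in heterozygotes (4.25 ± 0.45), and Egfl6, a secreted protein with EGF repeats, 20.2 and 33.4 against 829.9 and 409 (4.43 ± 0.45). Crabp2, which carries retinoic acid to its receptors, read 78.5 and 27.0 in WT against 1239 and 548 in heterozygotes (4.13 ± 0.50). The junction-associated Lmo7 (3.40 ± 0.30), the collagen Col12a1 (3.56 ± 0.35), Fndc1 (3.50 ± 0.39), the aldo-keto reductase Akr1c12 (3.52 ± 0.48) and Melk, a kinase of dividing cells (3.72 ± 0.47), were higher by similar steps. Lpl, the lipoprotein lipase, read 54.7 and 18.5 in WT against 747 and 452 in heterozygotes (4.14 ± 0.66), and Cdh2, N-cadherin, 2.95 and 10.7 against 503 and 162 (5.40 ± 1.02). Unlike Prap1 or Sprr2f, Lpl (48.5 and 38.8), Cdh2 (12.8 and 20.4) and Col12a1 (133 and 178) were low on the day 1 arrays too. Without heterozygous array 253 the adjusted p was 0.305 for Cdh2, 0.218 for Lpl, 0.0972 for Akr1c12 and 0.0758 for Melk, and without 281 it was 0.0742 for Cdh2 and 0.0736 for Lpl. The second probe set of Cdh2 read 95.7 and 12.1 in WT against 215.7 and 58.9 in heterozygotes, so there the groups overlapped. Of the 3 other probe sets of Col12a1, none passed and the 2 dimmest had the opposite sign.

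Id1, also among the 15 largest increases, encodes an inhibitor of basic helix-loop-helix factors and is a well-known target of BMP signalling. Its signal was 2826 and 1024 in WT, 20636 and 15568 in heterozygotes and 1400 and 1923 on day 1 (3.40 ± 0.37, adjusted p = 0.00111). Id3, looked up after the value of Id1 was seen, read 1184 and 526 in WT against 6548 and 4304 in heterozygotes (2.75 ± 0.33, adjusted p = 0.00217). Id2 read 12176 and 12282 in WT against 19845 and 17645 in heterozygotes and did not pass (0.61 ± 0.17, adjusted p = 0.09). For Id1 and Id3 the heterozygous arrays lay above both WT day 4 and both day 1 arrays.

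**Figure D2:**
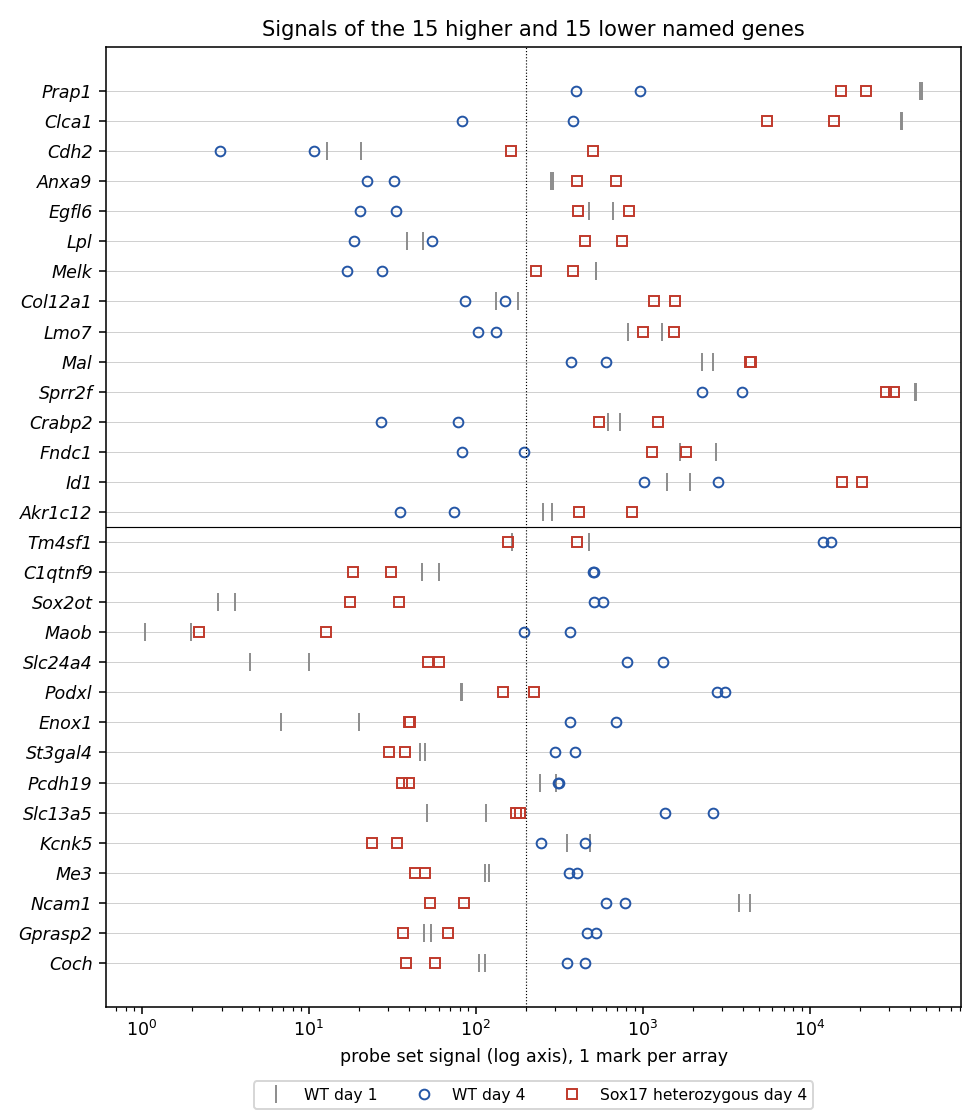
Signal on each array (log axis) of the 15 higher genes (top) and the 15 lower genes (bottom) with the largest difference between the nearest pair of heterozygous and WT day 4 arrays; the dotted line marks a signal of 200. Squares (heterozygous) and circles (WT day 4) do not overlap in any of the 30 genes, which is how they were chosen, while the day 1 marks lie on either side.

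Among the decreases, Tm4sf1 had the widest gap. This gene for a small membrane protein related to tetraspanins read 11979 and 13528 in WT against 155 and 403 in heterozygotes (-5.66 ± 0.48, adjusted p = 0.000295), close to the 166 and 479 of day 1. Its other 2 probe sets read 475 and 784, and 239 and 234, in WT and at most 7.5 in heterozygotes. Podxl, a sialomucin of the apical surface with anti-adhesive properties, read 3115 and 2792 in WT against 145 and 224 in heterozygotes (-4.03 ± 0.29, adjusted p = 0.000117). Tm4sf4, a relative of Tm4sf1, read 261 and 225 in WT against 8.28 and 28.8 in heterozygotes and did not pass (-3.87 ± 0.97, adjusted p = 0.0583).

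Several transporters, channels and enzymes were lower as well. Slc13a5, a citrate transporter, read 1357 and 2645 in WT against 175 and 184 in heterozygotes (-3.39 ± 0.43), and Slc24a4, which exchanges sodium for calcium and potassium, 1330 and 804 against 60.3 and 51.9 (-4.18 ± 0.68). The potassium channel Kcnk5 (-3.51 ± 0.47), the sialyltransferase St3gal4 (-3.31 ± 0.60), the mitochondrial malic enzyme Me3 (-3.02 ± 0.46) and Maob, a monoamine oxidase (-5.34 ± 1.12), followed, together with Enox1 (-3.62 ± 0.77), the secreted proteins C1qtnf9 (-4.35 ± 0.60) and Coch (-3.07 ± 0.48), and Gprasp2 (-3.28 ± 0.54). The adhesion molecule Ncam1 read 600.2 and 782 in WT against 53.1 and 84.6 in heterozygotes (-3.33 ± 0.26), and the protocadherin Pcdh19 317 and 313 against 40.0 and 36.4 (-3.01 ± 0.42). These 2 adhesion genes were not low on day 1, with 3800 and 4428 for Ncam1 and 301 and 242 for Pcdh19. Nor was Kcnk5, with 485 and 350. Another probe set of Kcnk5 and another of Ncam1, both with signals under 50 on all 4 arrays, had the opposite sign and did not pass. Without heterozygous array 253 the adjusted p was 0.222 for Enox1, 0.141 for St3gal4, 0.111 for Gprasp2, 0.105 for Maob, 0.0916 for Slc24a4, 0.0811 for Coch and 0.068 for Me3. It was 0.243 for Maob, 0.167 for Enox1, 0.0751 for St3gal4 and 0.0708 for Slc24a4 without 281, 0.0844 for Maob without WT array 277 and 0.0669 for Enox1 without WT array 284.

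Of 86 called genes named in the text, 20 were called under every alternative in which they were measured, other than the default prior on all genes. These were Prap1, Clca1, Sprr2f, Mal, Anxa9, Egfl6, Crabp2, Lmo7, Fndc1, Id1, Id3, Myc, Sgk1, Hbegf and Cd81 on the higher side and Tm4sf1, Podxl, C1qtnf9, Pcdh19 and Slc13a5 on the lower side.

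Sequences just upstream of these genes are shown because the altered gene encodes a DNA-binding factor whose family recognises the letters ACAAT. The promoter windows run from 250 bases before to 50 bases after a RefSeq transcription start on GRCm38.p6, and 20 of the 30 genes had an entry. The strongest riser and the strongest faller with an entry are printed first, followed by the 2 genes of the 30 whose windows hold the longer form AACAAT. Capitals mark ACAAT on either strand (read as ATTGT when it lies on the other strand).
Prap1 (chr7:140093146-140093445, plus strand): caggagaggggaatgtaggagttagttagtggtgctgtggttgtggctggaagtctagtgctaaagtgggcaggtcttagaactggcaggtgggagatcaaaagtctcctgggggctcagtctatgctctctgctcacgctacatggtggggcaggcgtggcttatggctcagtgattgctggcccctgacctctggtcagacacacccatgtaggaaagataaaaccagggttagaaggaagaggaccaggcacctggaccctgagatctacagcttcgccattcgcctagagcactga
Tm4sf1 (chr3:57301939-57302238, minus strand): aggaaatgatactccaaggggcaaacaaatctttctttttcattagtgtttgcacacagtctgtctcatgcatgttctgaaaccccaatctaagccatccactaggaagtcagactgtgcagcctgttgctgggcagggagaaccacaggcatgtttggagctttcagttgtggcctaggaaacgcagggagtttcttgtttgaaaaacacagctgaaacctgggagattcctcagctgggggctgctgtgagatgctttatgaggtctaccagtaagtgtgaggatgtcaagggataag
Sprr2f (chr3:92364937-92365236, plus strand): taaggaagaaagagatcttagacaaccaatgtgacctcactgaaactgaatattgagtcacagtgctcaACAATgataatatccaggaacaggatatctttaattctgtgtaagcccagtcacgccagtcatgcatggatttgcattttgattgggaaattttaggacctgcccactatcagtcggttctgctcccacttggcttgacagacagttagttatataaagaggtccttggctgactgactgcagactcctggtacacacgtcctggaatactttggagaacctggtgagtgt
Fndc1 (chr17:7827253-7827552, minus strand): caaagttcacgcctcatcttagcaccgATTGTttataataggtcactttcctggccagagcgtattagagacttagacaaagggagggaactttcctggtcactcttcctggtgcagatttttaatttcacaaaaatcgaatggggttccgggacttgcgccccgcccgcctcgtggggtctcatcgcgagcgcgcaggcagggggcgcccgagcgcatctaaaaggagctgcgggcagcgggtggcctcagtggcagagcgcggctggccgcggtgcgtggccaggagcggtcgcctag
Neither the Prap1 nor the Tm4sf1 window holds the core letters. Sprr2f has them once, from base 70 of the window, and Fndc1 once, from base 28. ACAAT occurred in 31% of all 32851 windows in the table and AACAAT in 10.7%. Of the 11 windows of the higher genes, 3 hold ACAAT (27.3%), and of the 12 windows of the lower genes 0 do. Among called genes over a signal of 200 that differed at least 2-fold on every pair of arrays (predicted names left out), 106 of the higher genes had 149 windows, of which 22.8% hold it, and 89 of the lower genes had 110, of which 16.4% do. Both shares lie below that of all windows, which describes these short windows only and says nothing of binding elsewhere.

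Of 16 measured genes that estrogen induces in the uterine epithelium, 8 were called higher in heterozygotes, 0 lower and 8 did not pass, with a median log2 change of 1.47 against -0.20 over all genes. Groups did not overlap on the higher side in 12 of the 16 and on the lower side in 2, against 18% and 30.6% of all genes. Of all genes, 1.93% were called higher and 1.59% lower. The membrane mucin Muc1 read 728 and 1090 in WT against 2086 and 1988 in heterozygotes (1.19 ± 0.19, adjusted p = 0.00781), and Muc4 277 and 145 against 651 and 485 (1.49 ± 0.27, adjusted p = 0.0144). The arginine deiminase Padi1 read 249.6 and 84.5 in WT against 993 and 690.0 in heterozygotes (2.50 ± 0.39), and the water channel Aqp5 33.6 and 6.25 against 416 and 188 (4.14 ± 0.69). Heterozygous levels of Muc1, Muc4 and Padi1 stayed well under those of day 1, which were 14415 and 16108, 21157 and 18731, and 17656 and 19294. The defence proteins lactoferrin (Ltf, 8351 and 1406 in WT, 27190 and 11735 in heterozygotes, 2.38 ± 0.64, adjusted p = 0.078) and lipocalin 2 (Lcn2, 991 and 133 against 2612 and 1135, adjusted p = 0.124) did not pass. The glycosyltransferases Galnt3 (1.21 ± 0.19) and Galnt12 (0.96 ± 0.18), which start mucin glycans, were higher, so that 4 of 12 genes of the mucin list were called higher and 0 lower. These 4, which include Muc1 and Muc4 of the estrogen list, were its only members over a signal of 200. The median of the mucin list was -0.12, with -0.72 against WT array 277 alone and 0.68 against WT array 284 alone. The estrogen list had 3 higher genes when array 253 was left out, and 11 when WT array 277 was left out. Muc1, Muc4, Padi1 and Aqp5 had adjusted p-values of 0.0921, 0.16, 0.068 and 0.153 without array 253, and the mucin list then had 0 called; Galnt12 also missed the threshold without WT array 277 (0.0613) and without 281 (0.0579).

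Calls among progesterone-induced genes and the steroid receptors themselves are read against 3.52% of all genes and 6.61% of those over a signal of 200. Counts this small say nothing particular about either list. Of 16 progesterone-induced genes, 1 was called higher and 0 lower (median -0.26, against -0.20 over all genes). The called gene was Sgk1, a kinase that regulates the epithelial sodium channel, with 10783 and 8337 in WT against 37541 and 30504 in heterozygotes (1.84 ± 0.18, adjusted p = 0.000732). Cyp26a1, which breaks down retinoic acid, read 299 and 503 in WT against 2706 and 2713 in heterozygotes. The nearest pair was 5.37-fold apart, but the gene did not pass (2.80 ± 0.89, adjusted p = 0.127). Its day 1 signals, 3.35 and 56.3, were far apart and enter the shared estimate of spread. Cyp26a1 did not pass in 11 of 15 other settings and passed in the rest. With the 4 day 4 arrays only, and with a pseudocount of 32, the list had 2 higher genes. Ihh, the hedgehog signal to the stroma, read 1428 and 1868 in WT against 1929 and 1482 in heterozygotes, so the groups overlapped (0.05 ± 0.25, adjusted p = 0.931). Among 14 steroid receptors and chaperones 0 passed: the progesterone receptor Pgr read 4470 and 6175 in WT against 7657 and 8612 in heterozygotes (0.63 ± 0.34, adjusted p = 0.377) and the estrogen receptor Esr1 16026 and 11454 against 13485 and 11831 (-0.10 ± 0.21, adjusted p = 0.83). Without WT array 284, 1 of the 14 was lower. At 2 arrays per group these values do not show that the receptors were equal.

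Of 25 measured implantation and receptivity genes, 3 were higher, 1 lower and 21 did not pass (median -0.15). This count, and that of the prostaglandin genes below, stands against 3.52% called among all genes and 6.61% over a signal of 200. Hbegf, a growth factor that acts between epithelium and blastocyst, read 1388 and 1396 in WT against 4872 and 4069 in heterozygotes (1.68 ± 0.16, adjusted p = 0.000565). The ligand Wnt4 read 169 and 73.5 in WT against 689 and 435 in heterozygotes (2.29 ± 0.37), and the homeobox gene Msx2 244 and 130.0 against 835 and 457 (1.79 ± 0.37). Lpar3, a lysophosphatidic acid receptor needed for timely implantation, was lower, with 13019 and 11638 in WT against 7253 and 7685 in heterozygotes (-0.72 ± 0.15, adjusted p = 0.0226). Lif, the cytokine that starts implantation, was dim in both groups (82.0 and 109 against 93.7 and 192, adjusted p = 0.466), whereas Msx1 was bright in both (16048 and 19181 against 14999 and 15360, adjusted p = 0.519). The other Msx1 probe set read 8157 and 6750 in WT against 4195 and 4549 in heterozygotes. It did not pass in the limma fit on every probe set (-0.76 ± 0.18, adjusted p = 0.0537). Ptger2, a prostaglandin E receptor, read 7262 and 9993 in WT against 3668 and 4690 in heterozygotes (-1.04 ± 0.20, adjusted p = 0.0196) and was the only call among 17 prostaglandin genes. Ptgs2, which makes prostaglandin precursors, read 2138 and 3270 against 1027 and 1732 (-0.99 ± 0.26, adjusted p = 0.0709). Without array 253 the adjusted p was 0.107 for Wnt4, 0.329 for Msx2, 0.28 for Lpar3 and 0.239 for Ptger2. It was 0.146 for Lpar3 without array 281, 0.0597 for Lpar3 without WT array 277, and 0.074 for Msx2 and 0.0606 for Ptger2 without WT array 284.

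Of 27 mitosis genes, 5 were called higher in heterozygotes and 0 lower, and 22 did not pass. This count, and that of DNA replication below, stands against 1.93% called higher among all genes and 3.67% over a signal of 200. In 23 of the 27 the groups did not overlap on the higher side, against 18% of all genes. Their median log2 change was 1.58. The median log2 signal of the list was 7.35 and 5.81 on the WT day 4 arrays, 8.21 and 8.32 on the heterozygous arrays and 5.87 and 5.57 on day 1, so both heterozygous arrays stood above the other 4. Mki67, the Ki-67 antigen, read 102 and 16.8 in WT against 490.4 and 504 in heterozygotes (3.54 ± 0.77, adjusted p = 0.0318). The contractile-ring protein Anln read 646 and 444 in WT against 1559 and 1565 in heterozygotes (1.54 ± 0.26), Ube2c, a ubiquitin-conjugating enzyme of mitotic exit, 578 and 288 against 1175 and 1267 (1.58 ± 0.33), and the kinesin Kif23 164 and 119 against 524 and 427 (1.75 ± 0.38). The checkpoint kinase Bub1, with 2.67 and 2.79 in WT against 192 and 194 in heterozygotes, was the remaining call, and its change depends on the pseudocount. Of 27 DNA replication genes, 5 were higher, 0 lower and 22 did not pass (median 0.46). The called genes included both ribonucleotide reductase subunits, Rrm2 (116 and 92.9 against 732 and 518, 2.56 ± 0.35) and Rrm1 (543 and 517 against 1024 and 874, 0.83 ± 0.20). The others were the polymerase subunit Pola1 (1.76 ± 0.36), the flap nuclease Fen1 (0.97 ± 0.21) and Uhrf1, which maintains DNA methylation (2.02 ± 0.48). The call held in 14 of 15 other settings for Rrm2, 12 for Pola1, 7 for Fen1 and 3 for Rrm1. For Uhrf1 it held in 6 of 13. The other Fen1 probe set read 424 and 407 in WT against 549 and 315 in heterozygotes, so there the groups overlapped (log2 change 0.002).

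Regulators of the G1 phase included Myc, which read 213 and 107 in WT against 1192 and 979 in heterozygotes (2.83 ± 0.33, adjusted p = 0.00166). Cyclin D1 (Ccnd1) read 613 and 440.5 in WT against 1701 and 1206 in heterozygotes (1.46 ± 0.26), and the inhibitor Cdkn2c 391 and 276 against 881 and 671 (1.22 ± 0.28). Ccnd2, cyclin D2, went the other way, with 3060 and 1307 in WT against 857 and 737 in heterozygotes, but did not pass (-1.33 ± 0.33, adjusted p = 0.0597). In all, 3 of 17 G1 genes were higher and 0 lower, against 1.93% called higher among all genes and 3.67% over a signal of 200. The calls of the mitosis list were 0 without either heterozygous array and 13 without WT array 277, with medians between 1.08 and 2.28 over the fits that left out a day 4 array. For DNA replication they were 0 without array 253, 1 without 281 and 3 without either WT array. Without array 253 the adjusted p was 0.209 for Ccnd1 and 0.454 for Cdkn2c, while Myc remained called in each fit.

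**Figure D3:**
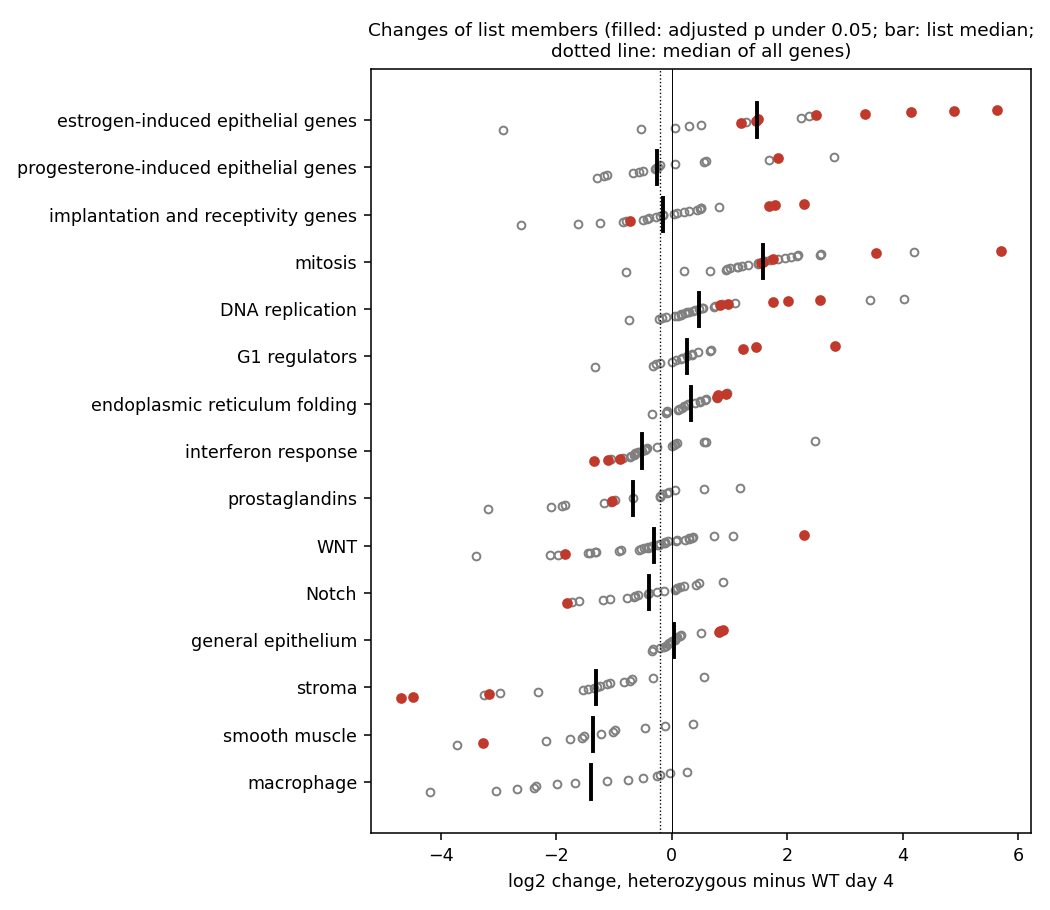
Log2 change (heterozygous minus WT day 4) of every measured member of 15 gene lists, 1 circle per gene, filled where the adjusted p was under 0.05; bars mark list medians and the dotted line the median of all genes (-0.20). The medians of the estrogen-induced (1.47) and mitosis (1.58) lists lie to the right of all others, and those of stroma (-1.31), smooth muscle (-1.37) and macrophage (-1.40) markers to the left.

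The signalling families had 1 or 2 called genes each, or 0, which is read against 3.52% of all genes and 6.61% of those over a signal of 200 and says nothing particular about the lists. Fzd5, a receptor for WNT ligands, read 1617 and 2063 in WT against 485 and 529 in heterozygotes (-1.85 ± 0.19, adjusted p = 0.000819), near the 620.0 and 577 of day 1. With Wnt4 it made up the calls among 34 WNT genes (1 higher and 1 lower, median -0.30), and it remained called without each of the 4 day 4 arrays, though not after centring (adjusted p = 0.0857) or with the mean of its probe sets (0.0574). Dll4, a Notch ligand, read 244 and 187 in WT against 69.4 and 52.5 in heterozygotes (-1.81 ± 0.42, adjusted p = 0.0461) and was the only call among 21 Notch genes. The Notch target Hey2 read 538 and 565 in WT against 171 and 190.1 in heterozygotes (-1.61 ± 0.50, adjusted p = 0.124). The Dll4 call held in 5 of 15 other settings. It ended without array 253 (adjusted p = 0.191), 281 (0.249), WT array 277 (0.1) or either day 1 array (0.0911 and 0.106), in the fit on 4 arrays (0.149), after quantile normalization (0.0552) or centring (0.193), with a pseudocount of 32 (0.092) and with the mean of probe sets (0.0852). Among 14 hedgehog genes 0 passed, and the receptor and target Ptch1 read 2527 and 2901 against 1976 and 2040.5 (-0.43 ± 0.15, adjusted p = 0.151).

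In the SOX family itself, 1 of 15 genes was called lower and 0 higher (median -0.24). The called gene was Sox2, at 42.2 and 36.9 in WT against 0.605 and 0.315 in heterozygotes, signals too dim to read as a level. Sox2ot, the long non-coding RNA whose gene surrounds Sox2, was clearer, with 575 and 512 in WT, 17.7 and 34.5 in heterozygotes and 3.60 and 2.85 on day 1 (-4.40 ± 0.86, adjusted p = 0.0195). Without array 253 its adjusted p was 0.236, without 281 it was 0.097 and without WT array 277 it was 0.0501. Sox2 was called in 0 of the 4 fits that left out a day 4 array. Sox5 read 1936 and 1702 in WT against 843 and 787 in heterozygotes (-1.16 ± 0.30, adjusted p = 0.0678).

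Some genes of ion transport, secretion, innate defence and the interferon response passed, in lists most of whose members did not. Among all genes 3.52% were called, and 6.61% among those over a signal of 200. Carbonic anhydrase 2 (Car2) was bright in WT, at 27400 and 20759, and lower in heterozygotes, at 7637 and 9246 (-1.50 ± 0.19, adjusted p = 0.00302); on day 1 it read 29762 and 31897. With Aqp5 and Clca1 higher, 2 of 23 ion and water transport genes were higher and 1 lower (median -0.39). Against WT array 277 alone that median was -0.95, and against WT array 284 alone -0.05. Slc12a2, a chloride cotransporter, read 15636 and 16700 in WT against 9724 and 10338 in heterozygotes (-0.69 ± 0.18, adjusted p = 0.0699). Xbp1, a transcription factor of secretory cells, read 5999 and 6080 in WT against 12049 and 11131 in heterozygotes (0.94 ± 0.15, adjusted p = 0.00894), and the chaperones Pdia4 (0.78 ± 0.14) and Canx (0.80 ± 0.18) were higher, making 3 of 20 endoplasmic reticulum genes (median 0.34). Among 18 cholesterol synthesis genes 0 passed (median 0.10). The lysozyme gene Lyz1 read 1462 and 1375 in WT against 4303 and 5440 in heterozygotes (1.77 ± 0.27, adjusted p = 0.00713). Another of its probe sets moved likewise (2.14 ± 0.26). The dimmest read 194 and 51.7 in WT against 89.1 and 91.7 in heterozygotes, so there the groups overlapped. With the dim Pglyrp1, a peptidoglycan recognition protein (2.65 ± 0.53, named after its value was seen), Lyz1 made 2 of 16 innate defence genes higher and 0 lower (median -0.17). That median was -0.63 against WT array 277 alone and 0.03 against WT array 284 alone. Of 23 interferon response genes, 3 were lower and 0 higher (median -0.52). They were the RNA sensors Ddx58 (5610 and 5720 against 1918 and 2590, -1.35 ± 0.17) and Ifih1 (-0.90 ± 0.18), and Ifit1 (-1.10 ± 0.26). The interferon median was -0.84 against WT array 277 alone and -0.16 against WT array 284 alone, where all genes gave -0.39 and -0.02. The interferon list had 1 call when array 253, 281 or 277 was left out, and 0 after centring. The endoplasmic reticulum list had 0 calls when either heterozygous array was left out and after centring, and the change of Pdia4 was -0.10 with the mean of its probe sets. Car2 had an adjusted p of 0.0683 without array 253, and Lyz1 one of 0.0622 without array 281.

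Most markers of epithelial classes and genes of cell junctions did not pass. Their counts stand against 3.52% called among all genes and 6.61% among those over a signal of 200. Krt7, a keratin of simple epithelia, read 2063 and 2285 in WT against 3724 and 4323 in heterozygotes (0.89 ± 0.15, adjusted p = 0.00936), and with the tight junction gene Cldn4 (0.82 ± 0.17) and the transcription factor Ehf (0.84 ± 0.17) made 3 of 18 general epithelium genes (median 0.03). Of 29 junction genes, 4 were higher (Cldn1, Cldn4, Cldn10 and the desmosomal cadherin Dsc2) and 1 lower, the connexin Gja1, which read 131 and 106 in WT against 40.6 and 48.0 in heterozygotes (-1.39 ± 0.25, adjusted p = 0.0133). Among 11 glandular epithelium genes 0 passed; the gland factor Foxa2 read 220.1 and 31.1 in WT against 77.6 and 101 in heterozygotes, so its groups overlapped. The 3 general epithelium genes were not called without array 253 or 281, and 1 remained without WT array 277. Junction genes had 0 calls without array 253 and 1 higher without array 281, and Cldn1 changed by -0.57 with the mean of its probe sets. Of 8 luminal epithelium genes, 2 were higher (Crabp2 and Cldn10) and 1 lower (Lpar3).

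Among 23 tetraspanins and relatives of Tm4sf1, Cd81 and Tspan8 were higher and Tm4sf1 lower (median 0.10). This count and that of the dissociation list below stand against 3.52% called among all genes and 6.61% over a signal of 200. Cd81, a tetraspanin of many cell types, read 1279 and 1395 in WT against 4862 and 3532 in heterozygotes (1.63 ± 0.17, adjusted p = 0.00095), and Tspan8, a tetraspanin of epithelia, 6960 and 7761 against 16711 and 13066 (1.01 ± 0.17, adjusted p = 0.0106). Genes that respond quickly to tissue dissociation or heat were examined because the epithelium was freed by enzymes, and 2 of 29 were higher and 1 lower (median 0.30). The heat-shock gene Hspa1a read 1789 and 2419.9 in WT against 3809 and 6619 in heterozygotes (1.27 ± 0.24, adjusted p = 0.0173), and Ier3, an immediate early gene, 6463 and 9534 against 17140 and 15780 (1.07 ± 0.20, adjusted p = 0.0175). The heat-shock gene Hsph1 read 4317 and 4957 in WT against 2214 and 2044 in heterozygotes (-1.12 ± 0.25, adjusted p = 0.0356). Without WT array 284, 8 genes of this list were higher, and without array 281 none was; the part of dissociation in the other results was not tested. Tspan8 was not called without array 253.

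Most lists of markers of other cell types had lower sums in heterozygotes, but few of their genes passed. Their counts stand against 1.59% called lower among all genes and 2.95% over a signal of 200. The summed signal of 18 stroma markers was 3531 and 3827 in WT against 1417 and 1837 in heterozygotes, and 3 were called lower and 0 higher (median -1.31). Col3a1, a fibrillar collagen, read 433 and 788 in WT against 32.3 and 128 in heterozygotes (-3.16 ± 0.67, adjusted p = 0.028), and Col6a1 and Dpt were the other calls. Of 12 smooth muscle markers, Synpo2 was called lower (545 and 779.6 against 96.5 and 46.3, -3.26 ± 0.62, adjusted p = 0.0175), and the list's sum was 1505 and 1369 in WT against 432 and 357 in heterozygotes (median -1.37). The sum of 14 macrophage markers was 3842 and 2296 against 1820 and 1716, with 0 calls (median -1.40). Against WT array 284 alone the medians were -1.42, -0.68 and -0.79. The lists for endothelium, neutrophils, lymphocytes, erythrocytes, mesothelium and blastocyst had 0 calls and medians from -2.09 to -0.76. Against WT array 284 alone these medians ran from -1.65 to -0.46. The summed signal of lymphocyte markers was 1347 on WT array 277 and 403.5 on 284, against 377.6 and 335.6 in heterozygotes. The oviduct list also had 0 calls, but its sum was higher in heterozygotes, at 21740 and 11740 against 6569 and 8198 in WT. Most of that sum was Ovgp1, the oviductal glycoprotein, at 5497 and 7309 in WT against 20932 and 10977 in heterozygotes (1.26 ± 0.31, adjusted p = 0.0591). In bulk samples, fewer cells of a type and less RNA per cell cannot be told apart, and the part of these markers in the other results was not tested. The stroma calls were 1 lower without array 253, 2 without 281, and 1 lower and 1 higher without WT array 277, and the Synpo2 call ended without either heterozygous array (adjusted p = 0.0928 and 0.161) and without WT array 284 (0.0537).

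Genes near Sox17 on chromosome 1, which lie beside the altered allele, were listed separately. Of 27 measured neighbours, 1 was higher and 1 lower (median 0.03), a count near the 3.52% called among all genes and 6.61% over a signal of 200. Rrs1, a ribosome biogenesis factor, read 968 and 1322 in WT against 2329 and 2423 in heterozygotes (1.07 ± 0.17, adjusted p = 0.00868), and Tram1, of protein translocation into the endoplasmic reticulum, 7623 and 8019 against 4334 and 4670 (-0.80 ± 0.14, adjusted p = 0.0124). Leaving out array 253 or 281 ended both calls (adjusted p = 0.0928 and 0.0772 for Rrs1, 0.218 and 0.097 for Tram1).

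**Figure D4:**
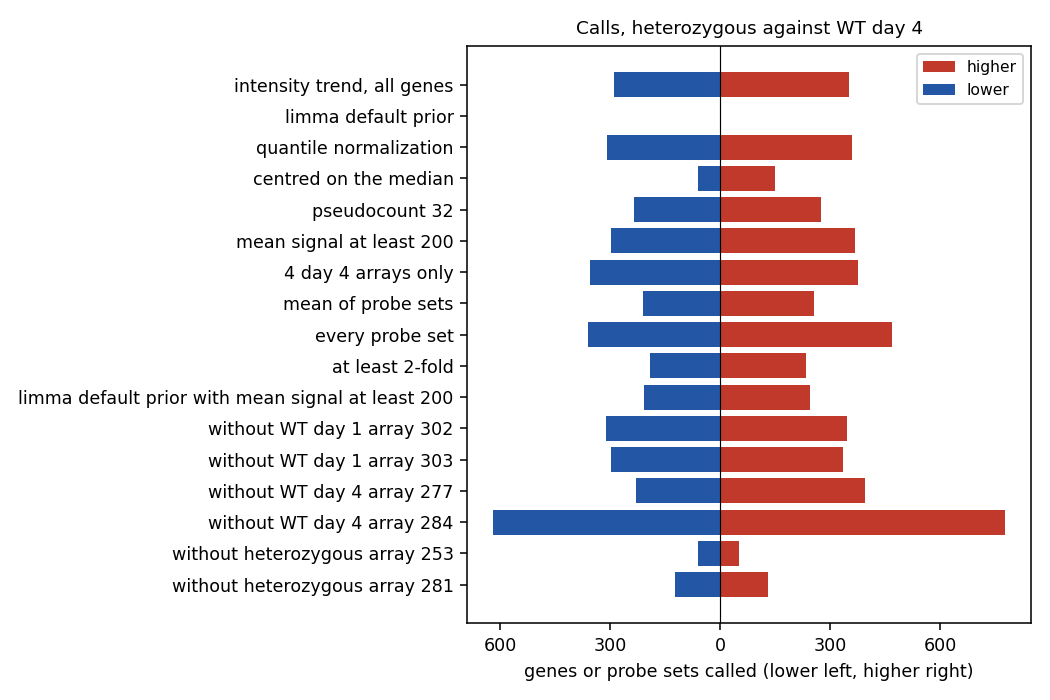
Number of genes (or probe sets, where every probe set was fitted) called higher (right) and lower (left) in heterozygotes under each setting. The total runs from 0 with limma's default prior on all genes to 1397 when WT array 284 is left out, and is 110 when heterozygous array 253 is left out.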

How the data were processed

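Probe set signals of 6 arrays were used, 2 in each of 3 groups taken from the sample titles. The deposited values are an intensity on a linear scale, scaled by the authors so that the mean after trimming 2% at each end was 500 on every array. The submitters' processing notes name Affymetrix Expression Console, Transcriptome Analysis Console and RMA; the form of the values (linear, with unequal quantiles) is not that of RMA output, and no source used here states which summary was taken. Detection calls did not enter, so low signals may be background.

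Of 45101 probe sets, 34945 had 1 gene symbol in the platform annotation, and each of 18193 genes was represented by its brightest probe set. Values were log2(signal + 1), which shrinks the change of dim genes relative to log2(signal). Such changes are still not conservative, because low signals may be background and a larger pseudocount shrinks them further. Over the other settings, which included a larger pseudocount, the change ran from 3.06 to 6.21 for Cdh2 and from -6.38 to -2.94 for Maob. One model in limma 3.58.1 (R 4.3.3) covered all 6 arrays, with 1 coefficient per group and 3 residual degrees of freedom, with an intensity trend in eBayes and Benjamini-Hochberg adjustment; errors are limma's standard errors, and adjusted p-values in the text come from this fit unless another is named. The trend was made the main setting because an earlier analysis had shown that the default prior called no gene. The members, the 35 gene lists and this choice were made with earlier results of these data known, so no list is independent evidence. With 2 arrays against 2, an exact permutation test could not reach 0.05 and none was run.

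Named genes were Sox17, the 15 higher and 15 lower called genes over a signal of 200 with the largest difference between the nearest pair of arrays (at least 2-fold on all 4 pairs, predicted names left out), up to 4 genes over a signal of 200 from each list, by smallest p, and 13 fixed genes, of which Areg was not analysed here. Id2, Id3, Sox2, Bub1, Uhrf1, Gja1, Col6a1, Dpt, Pglyrp1 and Epcam fall outside this rule and were named after their values were seen. The fit was tested on simulated data. Alternatives were the default prior, quantile normalization, centring, a pseudocount of 32, a minimum mean signal of 200, a fit on 4 arrays, other uses of probe sets, a 2-fold minimum and leaving out each array. No labels pair samples or name a batch.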

Additional observations from a re-analysis of the deposited data

How the results depend on the processing

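The number of called genes was 640. It was 0 with limma's default prior (2406 at an unadjusted p under 0.05), 208 after centring on the median (149 higher, 59 lower) and 424 with a 2-fold minimum (190 lower). Leaving out single arrays gave 110 to 1397 calls, 51 to 778 higher and 59 to 619 lower. Quantile normalization (669), a pseudocount of 32 (509), a minimum mean signal of 200 (665), the 4 day 4 arrays alone (730), the mean of probe sets (465) and every probe set (829) stayed within 1.5 times. The default prior on genes of a mean signal of at least 200, an alternative chosen after seeing the data, called 451. Shared with the 640 were 577 genes after quantile normalization, 179 after centring, 107 without array 253 and 237 without array 281. Centring moved the median of all genes from -0.20 to 0.07.

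Of 86 called genes named in the text, 77 were still called after quantile normalization, 56 after centring, 28 without array 253 and 45 without array 281. When probe sets were averaged per gene the sign turned for Cldn1 (-0.57) and Pdia4 (-0.10). Among genes that did not pass, centring turned the sign of Esr1 (0.17), Msx1 (0.065) and Sox17 (0.030), a pseudocount of 32 that of Foxa2 (-0.062), and the mean of probe sets that of Esr1 (0.25). Leaving out single arrays gave Esr1 -0.34 to 0.14, Ihh -0.14 to 0.24, Foxa2 -1.30 to 1.48 and Lif -0.011 to 1.01. The causes were not tested. No paired analysis was possible because the groups share no sample numbers. The 2 arrays per group and, for dim genes, the raised dim signals of WT array 277 limit every value; without detection calls the distance from background is unknown.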
